A study of Mus musculus with 48 samples.

Results

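The genes described are 7 subunits of the GABA-A receptor, Gabra2, Gabra3, Gabra4, Gabra5, Gabrb1, Gabrb2 and Gabrd, taken by symbol from 2 tables of mouse cerebral cortex RNAseq. They are 7 of 27082 genes in the table of C57BL/6J (B6) mice and 7 of 18939 in the table of APOE-TR mice, and each had reads in all 48 mice. B6 mice are the wild type inbred strain. APOE-TR mice carry the human APOE3 or APOE4 allele in place of mouse Apoe by targeted replacement, so no APOE-TR group kept the mouse gene and the reference for APOE4 is APOE3. Females and males of each genotype breathed filtered air (control) or nPM, nano-sized particulate matter collected from city air, which gave 12 groups of 4 mice. Sessions lasted 5 hr on 3 days per week, for 8 weeks in B6 mice (labelled 4 months old) and for 15 weeks in APOE-TR mice (labelled 6 months old). These were separate exposures, so genotype against B6 cannot be told apart from exposure, age and table, and tests were made within a table or with genotype as a term.

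GABA-A receptors are chloride channels that open when the transmitter GABA binds, and they carry most fast inhibition in the cortex. Each channel is a ring of 5 subunits, commonly alpha, beta and gamma, and the subunit mix sets where the channel sits, how sensitive it is to GABA and which drugs bind it. Gabra2 and Gabra3 encode alpha subunits of mainly synaptic receptors with benzodiazepine sites. Gabra4 and Gabrd encode alpha 4 and delta subunits that join in extrasynaptic receptors, which lack the classical benzodiazepine site and carry tonic inhibition, a role that alpha 5 (Gabra5) also has in hippocampus and deep cortical layers. Gabrb1 and Gabrb2 encode beta subunits, which help to form the GABA binding site.

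Most of the genes sit in clusters. By GENCODE M21 on GRCm38 (mm10), Gabra2 (chr5:70957597-71095849), Gabra4 (chr5:71569749-71658308) and Gabrb1 (chr5:71658113-72149037) are in a single cluster on chromosome 5, Gabra2 and Gabra4 on the minus strand and Gabrb1 on the plus strand. Gabra4 and Gabrb1 lie head to head and their annotated 5′ ends overlap by 196 bases. Gabra5 (chr7:57407672-57510059), Gabra3 (chrX:72432681-72656848), Gabrd (chr4:155384980-155398112) and Gabrb2 (chr11:42419757-42629028) are elsewhere, and another gene overlaps Gabra5 on the opposite strand. The libraries were stranded, but whether the counting used strand is not given in the sources used here, so reads in these overlaps cannot be assigned with certainty.

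RefSeq promoter windows (GRCm38.p6, from 250 bases before to 50 after a start) were found for 6 of the 7 genes, as 10 windows. The stretches before the Gabra4 start and before the downstream Gabrb1 start are shown because these neighbours stood on opposite sides of the other mice in the libraries described below. Each is written 5′ to 3′ on the strand of its gene and leaves out annotated untranslated bases. Capitals mark matches to the GC box GGGCGG or its reverse complement in Gabra4, and to the palindromic NRF-1 motif, GCGCA followed by its reverse complement, in Gabrb1.
Gabra4, chr5:71658364-71658558, minus strand: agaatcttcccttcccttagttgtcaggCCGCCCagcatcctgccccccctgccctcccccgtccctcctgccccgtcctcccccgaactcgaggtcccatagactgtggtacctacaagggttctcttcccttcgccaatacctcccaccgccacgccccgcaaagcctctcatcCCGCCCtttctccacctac
Gabrb1, chr5:71699682-71699931, plus strand: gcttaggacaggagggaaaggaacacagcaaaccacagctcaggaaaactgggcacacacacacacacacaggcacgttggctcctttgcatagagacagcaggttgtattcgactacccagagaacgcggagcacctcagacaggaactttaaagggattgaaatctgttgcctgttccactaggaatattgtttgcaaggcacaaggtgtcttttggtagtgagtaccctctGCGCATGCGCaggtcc
The Gabra4 stretch was 63.6% G and C with 2 GC box matches, and the Gabrb1 stretch was 50.8% G and C with 1 NRF-1 match that begins 16 bases before the start. Of 32851 promoter windows searched on both strands, 35.7% held GGGCGG and 0.971% held the NRF-1 motif, against 3 and 1 of the 10 subunit windows. The same search found GCGNGGGCG (EGR) in 2 of the 10 windows and in 5.55% of all, TATAAA in 3 of the 10 and in 13.6% of all, and TGACGTCA (CRE) in 0 of the 10 and in 1.79% of all. These matches describe letters and are not evidence of binding.

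Levels are the authors' CPM (reads of a gene scaled to library depth), rescaled within each table by TMM. Depth, read from the smallest steps of the CPM values, was an estimated 2.05 to 24.4 M reads per B6 mouse, 17.8 to 22.3 M in APOE-TR females and 22.4 to 31.3 M in APOE-TR males. A pair of APOE3 female controls, mice 61 and 6, stood apart from the other 30 APOE-TR mice. Their deposited CPM summed to 880610 and 793060 against 670540 to 739120, and the slope of log2 level on log2 transcript length was −0.442 and −0.321 against −0.179 to 0.134. The column of mouse 6 carries an animal number found in no sample label and was placed by its genotype, sex and exposure. The subunit results that rest on these 2 mice are given with and without them. General neuron, excitatory cortical neuron and interneuron markers had reads in all mice, as had striatal markers, whose median levels were 15.6 to 190.0 CPM. The labels do not say that same-group mice were litter or cage mates, and p-values measure the spread between these mice. In bulk tissue fewer cells of a type and less RNA per cell cannot be told apart.

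**Figure D1:**
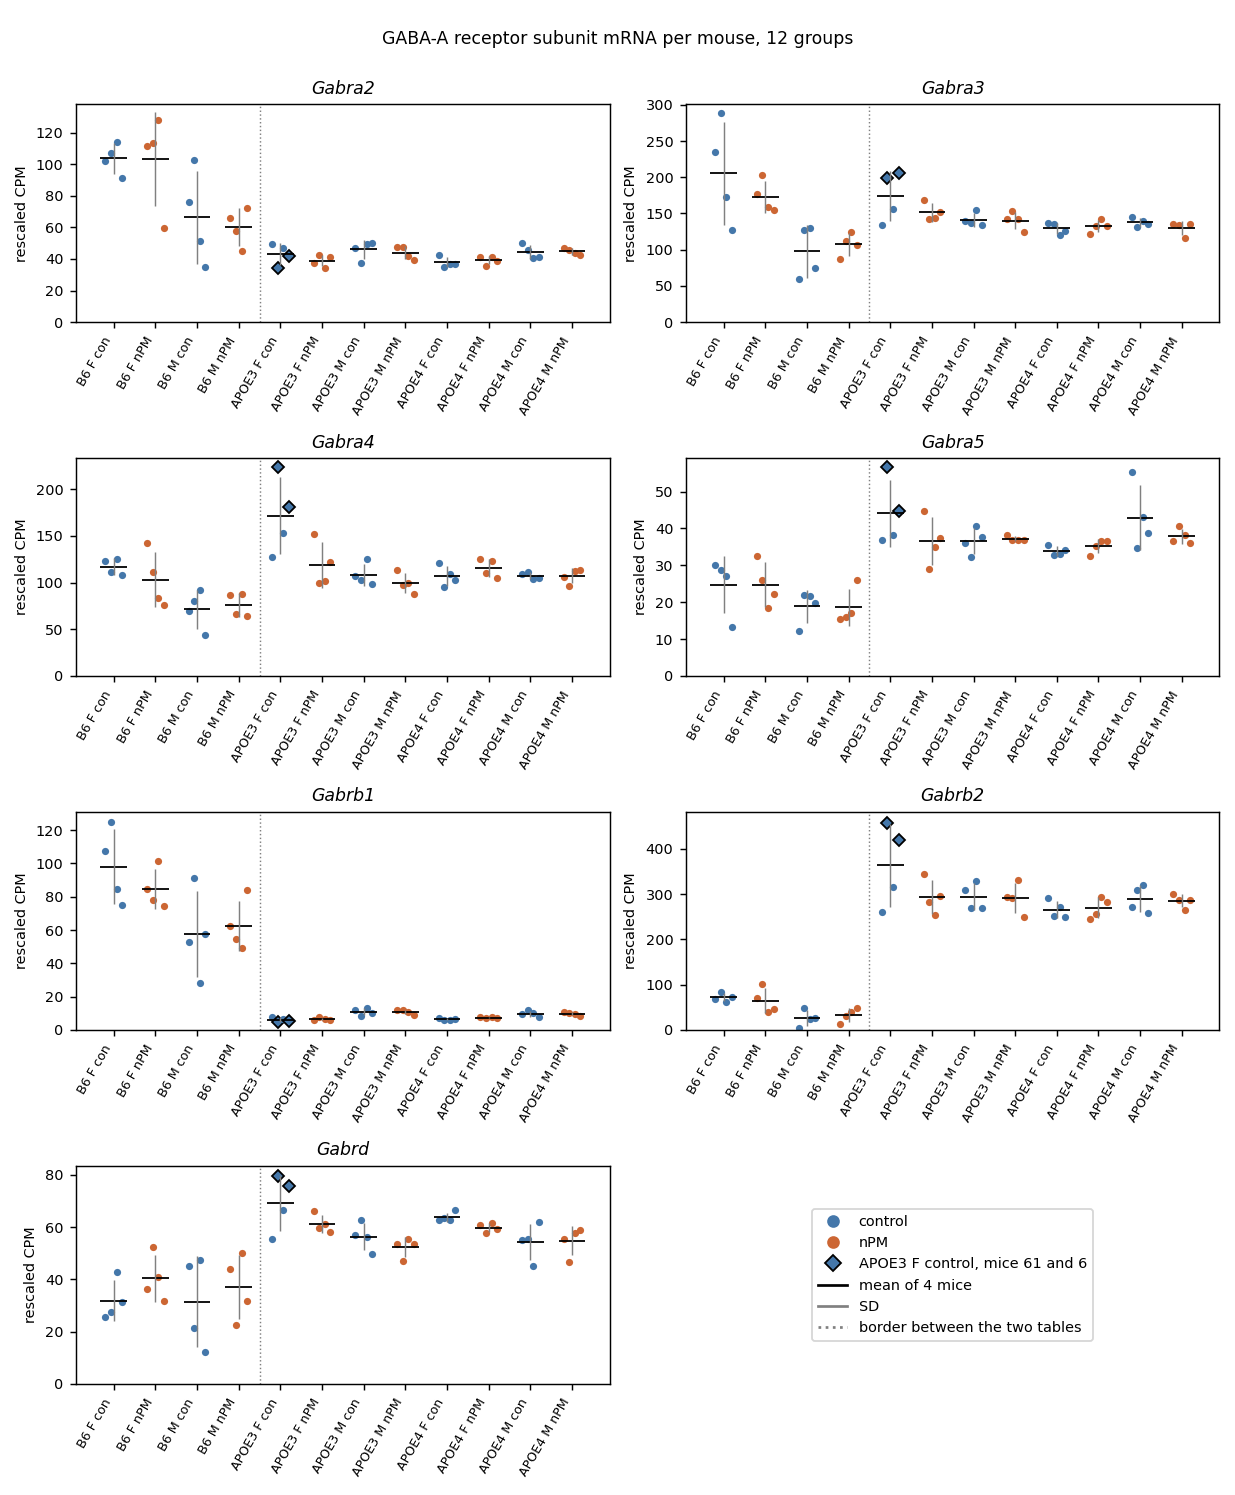
Level of each subunit mRNA in each mouse (vertical axis, TMM-rescaled CPM from 0) in the 12 groups (horizontal axis; F female, M male, con control), with the mean and SD of 4 mice and a dotted border between the separately normalized tables. Mice 61 and 6 (diamonds) of the APOE3 female controls sit above the other APOE-TR mice for Gabra3, Gabra4, Gabrb2 and Gabrd.

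Per kilobase of exon, Gabra3 had the highest level of the 7 in B6 mice, over the stretches counted for them. Its median was 32.7 CPM per kb (range 15.0 to 73.7, n = 16), above the next gene in 16 of 16 mice. Gabra4 followed with a median of 14.3 CPM per kb, then Gabrd with 11.8, Gabra2 with 10.96, Gabrb2 with 7.41, Gabra5 with 7.31 and Gabrb1 with 5.52. The places of Gabra2, Gabrb1 and Gabrb2 may depend on the stretch counted, which differs between the tables as given below. Gabrb2 was counted 3563 bases further at its 3′ end in APOE-TR mice, where its median was 45.1 CPM per kb. That value divides by an exon length of 6.36 kb, which leaves those bases out. The place of Gabrb2 beside Gabra3 in APOE-TR mice can therefore not be read. Neighbours in the middle of that order were not separated, since Gabra4 was above Gabrd in 10 of 16 mice, Gabrd above Gabra2 in 9 and Gabrb2 above Gabra5 in 9. In APOE-TR mice the order could be read for the 4 genes whose 3′ ends lie within 15 bases of each other in the tables. Gabra3 had a median of 34.7 CPM per kb, Gabrd 20.3, Gabra4 17.9 and Gabra5 12.4 (n = 32). Among these 4 genes Gabra3 led in 32 of 32 mice, Gabrd was above Gabra4 in 25 and Gabra4 above Gabra5 in 31.

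For the other 3 genes the tables count different stretches. The 3′ end of Gabrb1 reaches 11793 bases further in the B6 table, which also starts 41903 bases further upstream, and its median was 76.4 CPM in B6 and 7.95 CPM in APOE-TR mice. Gabra2 ends 3460 bases further in the B6 table, with medians of 83.7 and 41.8 CPM. Gabrb2 ends 3563 bases further in the APOE-TR table, and its medians were 47.1 CPM in B6 and 287 CPM in APOE-TR mice. The ratio of APOE-TR to B6 medians was 0.104 for Gabrb1, 0.499 for Gabra2 and 6.09 for Gabrb2, against 1.06 to 1.71 for the other 4 genes. These levels were normalized separately, and no difference between B6 and APOE-TR mice was tested.

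Within groups of 4, Gabra4 had an SD of 8.74 to 29.8 CPM around means of 71.5 to 117 CPM in B6 mice, and in APOE-TR mice the widest group was the APOE3 female controls, at 171 ± 41.2 CPM. Estimated reads of a subunit in a single B6 mouse ran from 63 (Gabrd, male control 6) to 10207 (Gabra3, female control 41). Gabrb2 was lowest in B6 male control 0, at 4.25 CPM from an estimated 83 reads, against 13.5 to 101 CPM in the other B6 mice. In APOE-TR mice the fewest reads were 109, for Gabrb1 in APOE3 female control 61, and the 6 other subunits had at least 775.

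Gabra4, the alpha subunit most often paired with delta, was the only one of the 7 genes called in the comparisons as designed, and it is shown in every mouse. Gabra2, Gabra3 and Gabrb2 were called under other settings, given below with the allele comparisons. In APOE3 female controls the level of Gabra4 was 127, 154, 180.3 and 224 CPM (mice 52, 63, 6 and 61). In APOE3 females with nPM it was 99.8, 101, 122 and 152 CPM. APOE4 female controls had 95.5, 103, 109 and 121 CPM. With nPM, APOE4 females had 104, 110.1, 123 and 125 CPM. All 4 APOE3 female controls were therefore above the 4 APOE4 female controls, while the ranges of the 2 APOE3 female groups overlapped. In APOE3 males the values were 97.97, 102, 107 and 126 CPM in controls and 88.1, 96.9, 99.8 and 113 CPM with nPM. In APOE4 males they were 104, 104, 109 and 111 CPM in controls and 96.6, 106, 113 and 114 CPM with nPM. The 4 male groups overlapped throughout. B6 females had 108, 112, 123 and 126 CPM in controls and 76.1, 83.9, 111 and 142 CPM with nPM. B6 males had 43.4, 69.7, 80.6 and 92.4 CPM in controls and 64.5, 66.3, 86.7 and 87.7 CPM with nPM, so that in B6 mice too each nPM group overlapped its controls.

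To ask whether subunit mRNAs respond to nPM, 4 nPM mice were compared with 4 controls in each sex and genotype by limma over all genes of the table, with an unadjusted p under 0.005 as the call, the threshold of the study. None of the 7 genes was called in any of the 6 fits. The share of all genes called was 1.1% in B6 females, 0.227% in B6 males, 0.622% in APOE3 females, 0.148% in APOE3 males, 0.236% in APOE4 females and 0.178% in APOE4 males. At an unadjusted p under 0.05 there was 1 of the 7 in APOE3 females (21% of all genes) and 1 in APOE4 females (5.48%), with 0 in B6 females (8.9%), B6 males (3.62%), APOE3 males (2.21%) and APOE4 males (4.11%). Of all genes tested, 0 passed 5% FDR in these 6 fits. The edgeR quasi-likelihood test on recovered reads, run in the 4 APOE-TR groups, also called 0 of the 7. With variance shared over the APOE-TR groups, Gabra4 was called in APOE3 females (limma unadjusted p = 0.000519, adjusted p = 0.00435). That setting called 4963 of all genes there, against 102 as designed.

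**Figure D2:**
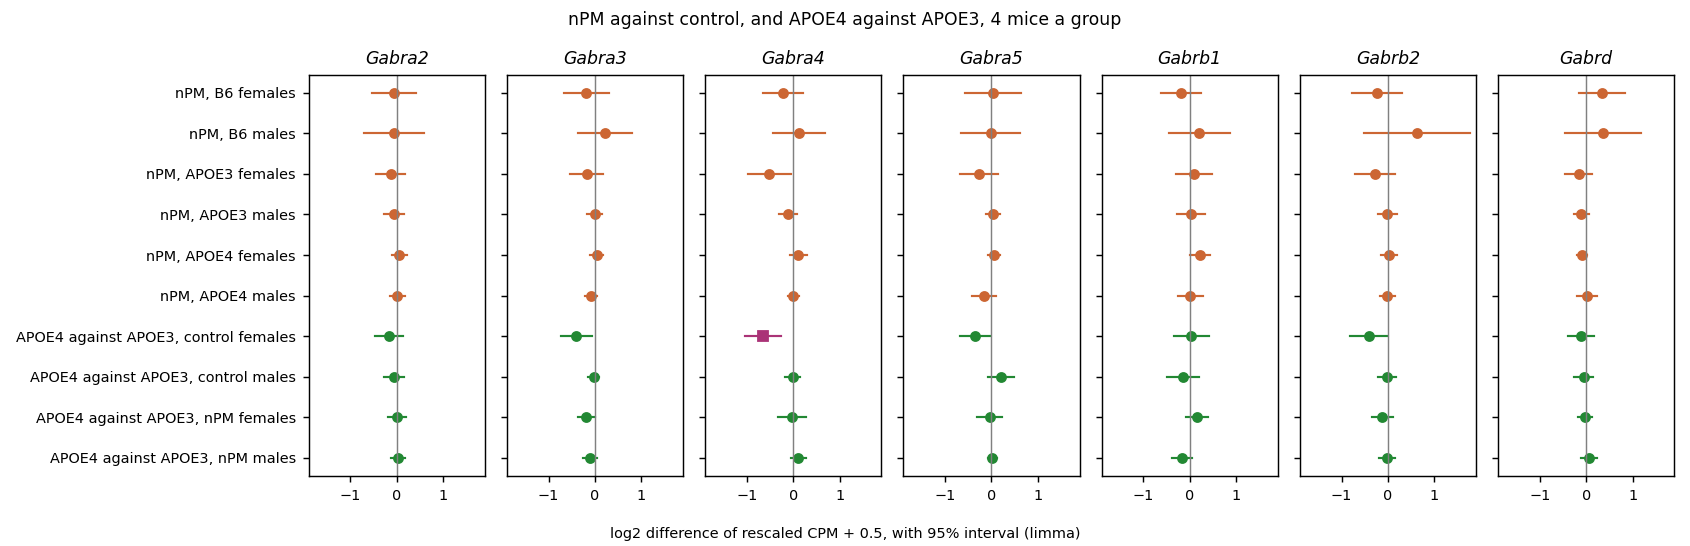
Log2 difference with its 95% interval (horizontal axis, limma) for each subunit in the 6 comparisons of nPM with control and the 4 comparisons of APOE4 with APOE3 (rows, 4 mice against 4). Orange marks nPM, green APOE allele and the purple square the value with an unadjusted p under 0.005, Gabra4 at −0.65 in control females, and intervals are widest in B6 mice.

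Among the alpha subunits, Gabra4 had the largest nPM difference. In APOE3 females it averaged 171 ± 41.2 CPM (SD, n = 4) in controls and 119 ± 24.5 CPM with nPM, a log2 difference of −0.52 (standard error 0.20, limma unadjusted p = 0.0316, adjusted p = 0.232), and the groups overlapped. Without controls 61 and 6 the log2 difference was −0.25 (limma unadjusted p = 0.213, adjusted p = 0.918). Cell type markers are given for the same APOE3 females, where 21% of all genes had an unadjusted p under 0.05. The median log2 difference with nPM was 0.73 for 5 excitatory neuron markers (3 higher at that p). It was −0.05 for 5 general neuron markers (2 higher at that p). It was −0.30 for astrocyte, −0.35 for microglia and −0.31 for oligodendrocyte markers, with 2 of 5 lower at that p in each list. The markers were not refitted without controls 61 and 6, and their part in the subunit values was not tested. The nPM difference of Gabra4 was −0.12 in APOE3 males, 0.11 in APOE4 females, 0.00 in APOE4 males, −0.22 in B6 females and 0.13 in B6 males (log2). Gabra5 was at −0.26 in APOE3 females (−0.05 without controls 61 and 6), −0.16 in APOE4 males and between −0.02 and 0.05 in the other 4 groups. Gabra3 ran from −0.19 (B6 females) to 0.21 (B6 males) and Gabra2 from −0.13 (APOE3 females, and −0.30 without controls 61 and 6) to 0.05 (APOE4 females). No unadjusted p of these 3 genes was under 0.05 in the 6 groups with all mice, while Gabra2 without controls 61 and 6 had limma unadjusted p = 0.0385 and adjusted p = 0.918 in APOE3 females.

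For the beta subunits, Gabrb1 in APOE4 females was 5.73, 5.98, 6.39 and 7.22 CPM in controls and 6.87, 7.22, 7.69 and 7.97 CPM with nPM. Only the top control, mouse 7, reached into the nPM range. The log2 difference was 0.22 (95% interval 0.01 to 0.43, limma unadjusted p = 0.0439, adjusted p = 0.759). Gabrb1 lay at 0.09 in APOE3 females (−0.14 without controls 61 and 6), at 0.02 and 0.01 in APOE3 and APOE4 males, and at −0.19 and 0.21 in B6 females and males. The widest nPM difference of any subunit was that of Gabrb2 in B6 males, 25.5 ± 17.7 CPM in controls and 32.9 ± 14.7 CPM with nPM, with a log2 difference of 0.63 and a standard error of 0.54 (limma adjusted p = 1). Control 0 alone held 4.25 CPM there, the interval ran from −0.51 to 1.77, and without that mouse the log2 difference was −0.05. In the same mice the 5 excitatory neuron markers each had an unadjusted p under 0.05, beside 3.62% of all genes. They were higher with nPM, with a median log2 difference of 1.61. Their summed level was 97.98 to 973 CPM in B6 male controls and 522 to 964 CPM with nPM, and their part in the Gabrb2 value was not tested. In APOE3 females Gabrb2 was at −0.28 with all mice and at 0.03 without controls 61 and 6.

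Gabrd, the delta subunit, was lower with nPM in each APOE4 female than in each APOE4 female control. Controls had 62.6, 62.6, 63.3 and 66.4 CPM and nPM mice 57.6, 59.1, 60.9 and 61.6 CPM, a log2 difference of −0.09 (limma adjusted p = 0.759, exact permutation p = 0.0286). That exact p is the smallest that 4 mice against 4 allow, and 3.36% of all genes in this comparison had groups that did not overlap. In B6 mice Gabrd averaged 31.9 ± 7.75 CPM in control and 40.3 ± 8.91 CPM in nPM females, with overlap, and its log2 difference was 0.34 in females and 0.37 in males. Without male control 6, whose Gabrd rested on an estimated 63 reads, the value in B6 males was −0.01. It was −0.16 in APOE3 females, where controls 61 and 6 held the top values (79.3 and 75.7 CPM), and 0.01 without them.

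Intervals show what these comparisons could resolve. The standard error of a subunit's nPM difference was 0.06 to 0.12 in APOE4 males and 0.26 to 0.54 in B6 males (log2). For Gabra4 in APOE4 males the 95% interval was −0.12 to 0.12, a change of −8.17% to 9%, whereas in B6 males it was −0.43 to 0.69.

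Over all 48 mice, with terms for sex and genotype, 0 of the 7 genes were called for nPM, where 1.37% of all genes were, and 0 had an unadjusted p under 0.05 (13.3% of all genes). The log2 differences ran from −0.10 (Gabra4, limma unadjusted p = 0.217, adjusted p = 0.582) to 0.06 (Gabrd), with a median of −0.04 beside 0.02 over all 11080 genes tested. Gabrb1 was at 0.06, Gabrb2 at 0.02, and Gabra2, Gabra3 and Gabra5 were at −0.04, −0.04 and −0.05. Without controls 61 and 6 Gabra4 was at −0.05 and Gabrd at 0.09. The difference of the nPM response between females and males, averaged over genotypes, also gave 0 calls of 7 (1.56% of all genes) and 0 at p under 0.05 (11.3%). All 7 values were below 0, from −0.36 for Gabrb2 (limma adjusted p = 0.606) to −0.01 for Gabra5, which was at 0.06 without controls 61 and 6. The smallest adjusted p was 0.552 (limma), for Gabra4 at −0.21. Single B6 male controls moved these values. Without control 0 Gabrb2 was at −0.14 and Gabra5 at 0.05. Without control 6 Gabra2 was at 0.07 and Gabrd at 0.06, and without control 3 Gabrb1 was at 0.06.

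The comparison of APOE4 with APOE3 asks whether the allele goes with subunit levels. In control females 1 of 7 genes was called, and 5.83% of all genes were. Gabra4 was 107 ± 10.6 CPM in APOE4 and 171 ± 41.2 CPM in APOE3 female controls (SD, n = 4), a log2 difference of −0.65 (standard error 0.17, 95% interval −1.04 to −0.26, limma unadjusted p = 0.00436, adjusted p = 0.0782). The groups did not overlap (exact permutation p = 0.0286, the smallest possible), as was so for 27.7% of all genes in this comparison. It did not pass 5% FDR, which 37 of 16416 genes did (0.225%). The edgeR quasi-likelihood test on recovered reads gave −0.68 (unadjusted p = 0.00282, adjusted p = 0.0732). Without APOE3 controls 61 and 6 the difference was −0.39 (limma unadjusted p = 0.00733, adjusted p = 0.0933), with the remaining APOE3 mice at 127 and 154 CPM above all 4 APOE4 controls. With a covariate for the length slope it was −0.25 (limma unadjusted p = 0.0935, adjusted p = 0.575). Leaving out 1 mouse at a time gave −0.78 to −0.51, and the call was lost in 7 of 8 cases, all but that without APOE3 control 52.

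In the same comparison 4 of the 7 genes had an unadjusted p under 0.05, beside 40.6% of all genes. Gabra5 was 36.8, 38.2, 44.6 and 56.8 CPM in APOE3 and 32.84, 32.99, 34.23 and 35.55 CPM in APOE4 female controls, without overlap, and its log2 difference was −0.35 (limma unadjusted p = 0.0349, adjusted p = 0.101). Gabra3 was 134, 157, 199.5 and 206 CPM in APOE3 and 121, 125, 135 and 137 CPM in APOE4 female controls, with APOE3 mouse 52 below 2 APOE4 mice and a log2 difference of −0.40 (limma unadjusted p = 0.0235, adjusted p = 0.0874). Gabrb2 was 259, 317, 420.3 and 458 CPM in APOE3 and 249, 251, 271 and 292 CPM in APOE4 female controls, a log2 difference of −0.42 (limma unadjusted p = 0.0455, adjusted p = 0.117). In each of these 3 genes the 2 highest APOE3 values were those of mice 61 and 6. Without that pair the log2 differences were −0.14 for Gabra5, −0.16 for Gabra3 and −0.11 for Gabrb2, with limma adjusted p of 0.309, 0.326 and 0.57. Gabra2 went the other way, from −0.18 with all mice to −0.35 without the pair (limma unadjusted p = 0.00531, adjusted p = 0.0835). With the length covariate, under which Gabra4 was not called, Gabra2 was called at −0.46 (limma unadjusted p = 0.00141, adjusted p = 0.196) and Gabrb2 was at 0.02, on the other side of 0. Gabrb1 was at 0.04 and Gabrd at −0.11, and without mice 61 and 6 both changed side, to −0.20 and 0.07 (limma adjusted p of 0.409 and 0.675). With variance shared over the APOE-TR groups, Gabra3 (limma unadjusted p = 0.000337, adjusted p = 0.00148) and Gabrb2 (limma unadjusted p = 0.00295, adjusted p = 0.0078) were called. That setting called 6660 of all genes, against 957 as designed. Both genes were also called without APOE3 control 52 (limma adjusted p of 0.0244 and 0.0255), where 3129 genes were called.

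Cell type markers in these females are given beside the subunits. The summed level of 5 excitatory neuron markers was 396 to 789 CPM in APOE3 and 803 to 993 CPM in APOE4 female controls, without overlap and opposite in direction to Gabra4. Slc17a7 weighs most in that sum, with an APOE-TR median of 752 CPM against 38.2 to 102 CPM for the rest. Of all single genes 27.7% did not overlap here. Of the 5 markers 1 was called higher (5.83% of all genes called) and 4 were higher at an unadjusted p under 0.05 (40.6%). The 5 general neuron markers summed to 4065 to 6254 CPM in APOE3 and 4123 to 4693 CPM in APOE4, and 5 astrocyte markers to 1003 to 1369 CPM and 732 to 1290 CPM. Over whole lists the median log2 difference was 0.86 for excitatory neuron, −0.25 for general neuron, −0.38 for astrocyte and 0.03 for dentate granule cell markers. Aqp4, an astrocyte water channel, was called at −0.80. The part of these shifts and of the length slope in the subunit values was not tested beyond the fits above.

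In the other 3 allele comparisons 0 of 7 subunits were called, beside 1.39% of all genes in control males, 1.17% in nPM females and 1.98% in nPM males. At an unadjusted p under 0.05 the counts were 0 in control males (5.84% of all genes), 1 in nPM females (8.94%) and 0 in nPM males (9.89%). None of the 7 passed 5% FDR, which 0.433%, 0.139% and 0.475% of all genes did. Gabra3 in nPM females was 142, 143, 152 and 169 CPM in APOE3 and 122, 132, 133 and 142 CPM in APOE4 mice, a log2 difference of −0.19 (limma unadjusted p = 0.0409, adjusted p = 0.532). These are other animals than the controls, and the value with the length covariate was −0.07. Gabra4 there was 119 ± 24.5 CPM in APOE3 and 116 ± 9.90 CPM in APOE4 females, a log2 difference of −0.02. With the length covariate Gabra4 was at 0.23 and Gabra5 at 0.19 in nPM females, both on the other side of 0 from the values without it (limma adjusted p of 0.372 and 0.405). In control males the log2 differences ran from −0.15 (Gabrb1) to 0.21 (Gabra5), where APOE4 control 3 held 55.2 CPM against 34.8 to 43.1 CPM in the other 3. For Gabra4 in control males the difference was −0.01 with a 95% interval of −0.17 to 0.15. In nPM males they ran from −0.16 (Gabrb1) to 0.11 (Gabra4).

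Over 48 mice, 0 of 7 genes were called for APOE4 against APOE3 (1.75% of all genes), 0 had p under 0.05 (13.5%) and 0 passed 5% FDR (0.325%). The 7 differences ran from −0.18 to −0.03. The value of −0.18 belonged to Gabra3 (limma unadjusted p = 0.112, adjusted p = 0.457). It was called in 2 other settings, at −0.18 in the 32 APOE-TR mice alone (limma unadjusted p = 0.00168, adjusted p = 0.0409), where 1275 genes were called against 194 in the fit to 48 mice, and at −0.36 with voom, ComBat and an unweighted fit (limma unadjusted p = 0.00122, adjusted p = 0.0562). Without controls 61 and 6 it was −0.15 (limma adjusted p = 1), and with the length covariate −0.25 (limma unadjusted p = 0.0286, adjusted p = 0.738).

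A fit to the means of the 8 APOE-TR groups compared the nPM response of APOE4 with that of APOE3 mice. In females 1 of 7 genes was called, with 3.79% of all genes, and the same 1 was under p of 0.05 (28.9%). None of the 7 passed 5% FDR, which 0.0125% of all genes did. For Gabra4 the response of APOE4 females exceeded that of APOE3 females by 0.63 (log2, standard error 0.19, 95% interval 0.25 to 1.01, limma unadjusted p = 0.0022, adjusted p = 0.124). Its parts are the nPM differences of 0.11 in APOE4 and −0.52 in APOE3 females given above. The APOE3 female controls enter this value, the nPM comparison in APOE3 females and the allele comparison in control females, so the 3 results share 4 mice and are not separate evidence. Without controls 61 and 6 it was 0.37 (limma unadjusted p = 0.0397, adjusted p = 0.623), and with the length covariate 0.37 (limma unadjusted p = 0.0214, adjusted p = 0.462). With 1 mouse left out it ran from 0.49 to 0.76, and the call was lost in 7 of 32 cases, among them those without control 61 or control 6. The other 6 genes were at 0.07 to 0.32 in females. Without mice 61 and 6 they ran from −0.10 (Gabrd) to 0.36 (Gabrb1). Averaged over sexes 0 of 7 were called (0.676% of all genes) and 1 had p under 0.05 (10.4%), with Gabra4 at 0.37 (limma unadjusted p = 0.00826, adjusted p = 0.447). In males 0 of 7 were called (0.0313% of all genes) and 0 had p under 0.05 (0.895%), with values from −0.19 (Gabra5) to 0.12 (Gabra4).

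**Figure D3:**
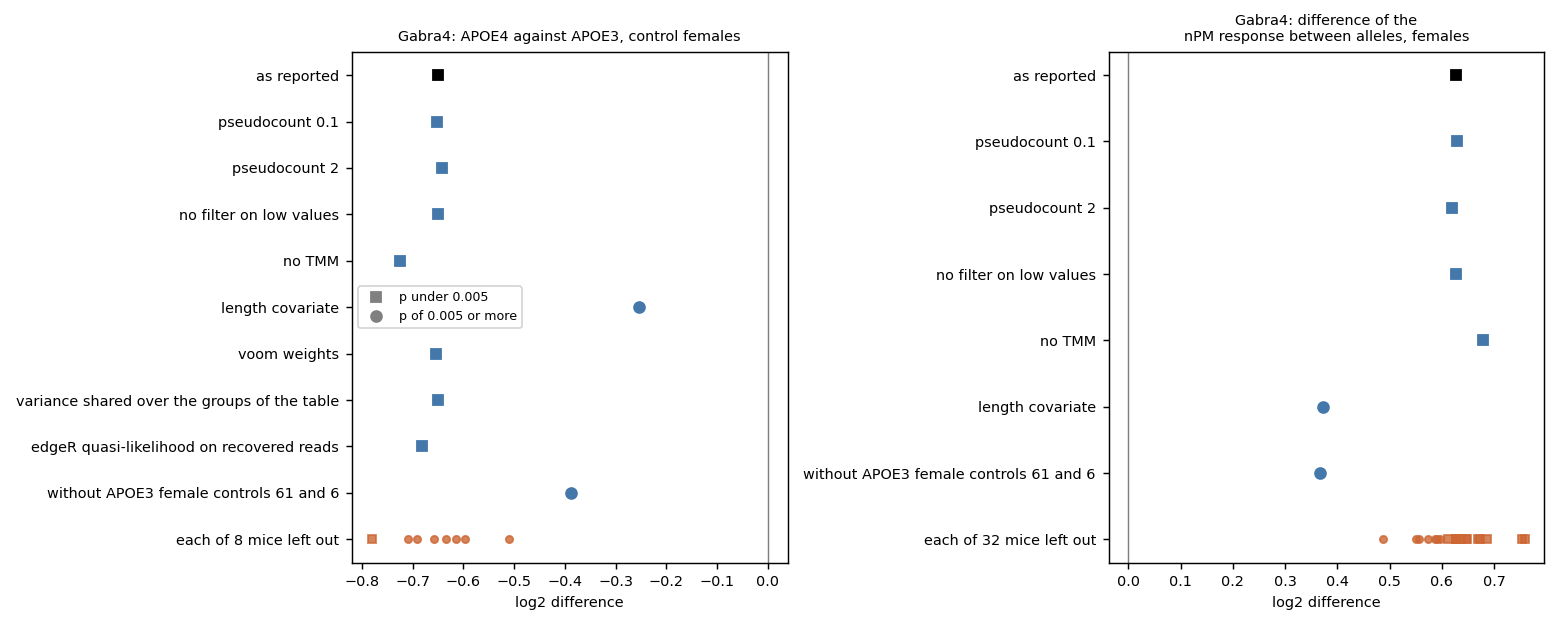
Log2 difference of Gabra4 (horizontal axis) under each setting (rows) for APOE4 against APOE3 in control females, left, and for the difference of the nPM response between alleles in females, right. Squares have an unadjusted p under 0.005 and circles a larger one, and the values nearest 0 are those with the length covariate (−0.25 and 0.37) and without APOE3 female controls 61 and 6 (−0.39 and 0.37).

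The 2 APOE3 female controls can be described subunit by subunit. Mouse 61 held 2.08 times and mouse 6 1.67 times the median Gabra4 of the other 30 APOE-TR mice (108 CPM, range 88.1 to 154). For Gabrb2 the folds were 1.61 and 1.48, for Gabra3 1.47 and 1.51 and for Gabrd 1.37 and 1.31. In all 4 genes both mice were above each of the other 30. Gabra5 was 1.55 and 1.22 times the median, with mouse 61 above each of the other 30 and mouse 6 above 28 of them. Gabrb1 was the reverse, at 4.83 and 5.45 CPM and 0.603 and 0.679 times the median, below each of the other 30 mice. Gabra2 was 34.1 CPM in mouse 61, just below the other 30 mice (34.3 to 50.1 CPM), and 42.1 CPM in mouse 6, near their median of 41.9 CPM. APOE3 nPM mouse 55, with the next steepest length slope (−0.179), had the highest Gabra3 (169 CPM) and Gabrb2 (343 CPM) of the other 30 mice. Across the 32 mice Gabra4 had r = −0.83 with the length slope, Gabrd −0.77, Gabra3 −0.72, Gabrb2 −0.58 and Gabrb1 0.81, and across the other 30 these were −0.56, −0.61, −0.31, 0.07 and 0.82. These r describe libraries that differ in sex and depth, and were not tested.

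**Figure D4:**
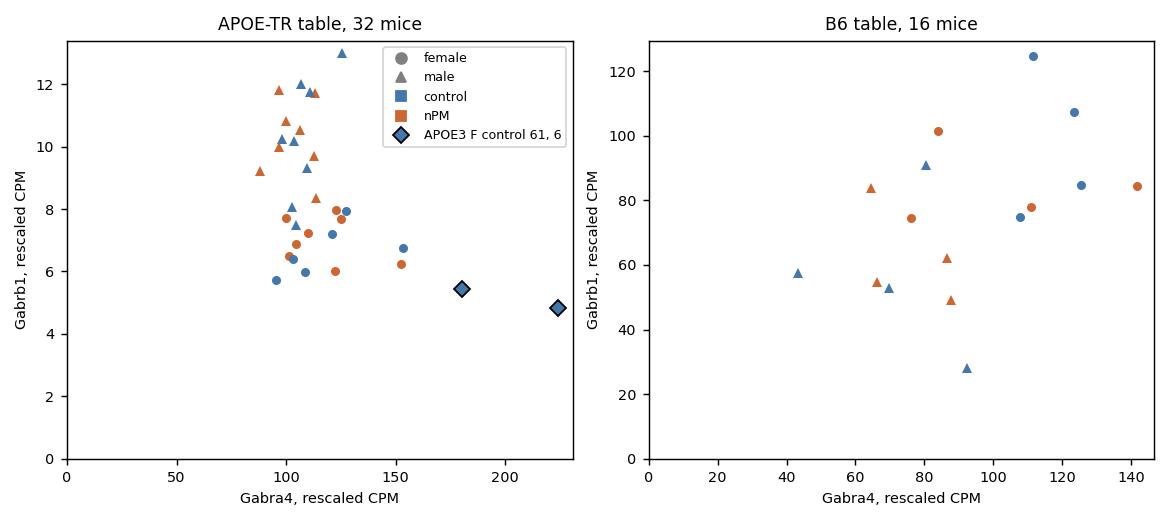
Gabrb1 against Gabra4 (both axes TMM-rescaled CPM from 0) in each mouse of the APOE-TR table, left, and of the B6 table, right. Mice 61 and 6 (diamonds) combine the highest Gabra4 with the lowest Gabrb1, females (circles) and males (triangles) of the APOE-TR table separate along Gabrb1, and the 2 tables count different stretches of Gabrb1.

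Gabra4 and Gabrb1, the neighbours on chromosome 5, had r = −0.49 over the 32 APOE-TR mice (log2), −0.24 without mice 61 and 6, and 0.365 over the 16 B6 mice. In the APOE-TR table Gabrb1 starts at an annotated start codon (71700016), so the overlap with Gabra4 is outside its bounds. Gabra2, in the same cluster, had r = 0.715 with Gabrb1 over 32 mice, 0.71 without mice 61 and 6, and 0.73 in B6 mice. The 2 beta subunits had r = −0.13, 0.39 and 0.58 in the same order. Gabrd and Gabra4, which encode partners in 1 receptor type, had r = 0.69, 0.45 and 0.51. Gabra3 and Gabrb2 had r = 0.86, 0.67 and 0.83.

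Levels in females and males are given as a description. In the APOE-TR table Gabrb1 was 4.83 to 7.97 CPM in 16 females (median 6.62) and 7.50 to 12.99 CPM in 16 males (median 10.2), overlapping only between 7.50 and 7.97 CPM. The length slope was −0.442 to 0.020 in these females and 0.052 to 0.134 in the males, and the male libraries were deeper, so sex cannot be told apart from those library properties here. Gabrd stood the other way, at 55.4 to 79.3 CPM in females and 45.1 to 62.6 CPM in males. In B6 mice the 7 subunits summed to 466 to 772 CPM in 8 females and 270 to 491 CPM in 8 males. Gabra3 contributed most to that, with 127 to 289 CPM in B6 females and 58.98 to 129.9 CPM in B6 males. General neuron markers in B6 mice summed to 3937 to 6927 CPM in females and 1857 to 4314 CPM in males. The length slope was 0.004 to 0.062 in B6 females and −0.165 to 0.049 in B6 males. Across the 16 B6 mice r with that slope was 0.935 for Gabrb2, 0.744 for Gabra5, 0.722 for Gabra3 and 0.699 for Gabrb1. For Gabra2, Gabra4 and Gabrd it was 0.423, 0.353 and −0.29. The part of the slope in the B6 levels was not tested, and no comparison of sexes was fitted.

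Genes around the receptor were read from lists of 40, of which 32 to 37 were tested in each comparison. The lists held other GABA-A subunits (12), genes of GABA synthesis, vesicle packing, uptake and breakdown (8), receptor anchoring and trafficking (13), the GABA-B receptor (5) and neuronal chloride transport (2). For nPM, 1 gene was called in B6 females and 1 in APOE4 males, both higher, and 0 in the other 4 groups and over 48 mice, beside the 1.1% and 0.178% of all genes called in those 2 comparisons. They were Slc32a1, the vesicular GABA transporter (log2 0.99, limma unadjusted p = 0.00323, adjusted p = 0.414), and Gabrq, the theta subunit (log2 0.38, limma unadjusted p = 0.00429, adjusted p = 0.956). In control females 1 of 35 genes was called higher and 2 lower in APOE4 than in APOE3, beside 5.83% of all genes called in either direction. Gabrg1, a gamma subunit gene next to Gabra2, had a log2 difference of −1.12 (limma unadjusted p = 0.000284, adjusted p = 0.0782). Gabarapl2, of the GABARAP trafficking and autophagy family, was at −0.77 and Slc12a5, which exports chloride from neurons, was at 1.10 (adjusted p = 0.0782 for both by limma). In the difference of the nPM response between alleles in females, Gabrg1 (1.03) and Gabarapl2 (0.60) were called, as was Gabra4, beside 3.79% of all genes. Averaged over sexes, that difference called 1 of 35 listed genes, from the list of other GABA-A subunits, beside 0.676% of all genes. Slc32a1 was higher in APOE4 nPM males (log2 0.39, limma adjusted p = 0.188). Over 48 mice Nlgn2, an adhesion protein of inhibitory synapses (log2 0.47, limma adjusted p = 0.278), and Slc12a5 (0.39, limma adjusted p = 0.262) were among the 3 of 32 listed genes called higher in APOE4, and 0 were called lower, beside 1.75% of all genes called. These listed genes were not refitted without mice 61 and 6. None of the 5 listed GABA-B receptor genes was called in any of the 16 comparisons, beside 0.0313% to 5.83% of all genes. At such shares a count of 0 among 5 genes says little about them.

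For each subunit the gene with the most similar log2 level over the 32 APOE-TR mice was sought among 15963 others. Gabra4 was most like Ppp2r2d (r = 0.95), Gabrb1 most like Lnpep (0.96), Gabrb2 most like Oxr1 (0.95) and Gabra3 most like Atp6v1a (0.93). For Gabrd it was Ppp3ca (0.85), for Gabra5 Zc3h14 (0.815) and for Gabra2 Nkain3 (0.80). Without mice 61 and 6 the r of these pairs was, in that order, 0.88, 0.955, 0.88, 0.82, 0.76, 0.71 and 0.84. They are descriptions over mice that share depth and sex differences between libraries.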

How the data were processed

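Total RNA of cerebral cortex was extracted with TRIzol and RNeasy kits, and stranded mRNA libraries were made with the TruSeq kit. The authors aligned reads to mm10 with TopHat2 (version 2.0.8b) in Partek Flow, kept uniquely mapped reads, counted them over RefSeq genes and deposited CPM values per mouse in 1 table for B6 and 1 for APOE-TR mice. How CPM was scaled before deposit is not given in the sources used here. In each table the 4 listings of repeated symbols were left out. Low values were whole multiples of 1 read in 95.3% to 96.3% of cases in APOE-TR mice (tolerance 0.1 read, up to 20 reads) and in 75.4% to 89.0% in B6 mice, whose reads are estimates.

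Values were rescaled by TMM within each table (edgeR 4.0.16) and compared as log2(CPM + 0.5) by limma 3.58.1 with a trend in R 4.3.3, over all genes that exceeded, in each mouse fitted, the value listed there for genes with 0 reads. Fold changes are on that scale and understate those of low genes. P-values were adjusted by Benjamini-Hochberg over all genes of a fit, calls used an unadjusted p under 0.005, and exact permutation tests were two-sided. The tables used hold CPM, so edgeR tests were run only as an alternative, on recovered APOE-TR reads, and ComBat (sva 3.50.0) only over 48 mice. Scripts were tested on simulated data. Alternatives were other pseudocounts, no filter, no TMM, voom weights, shared variance, a covariate for the length slope, single sexes and leaving out mice.

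The 7 genes, the lists and the markers were chosen with earlier results of these data known. Named were the 7 genes throughout, at most 3 called genes per list and comparison by smallest p, and for each subunit the gene most like it over 32 APOE-TR mice. The promoter stretches and the alternative without mice 61 and 6 were chosen after values were seen. Some genes of the lists are not reported here by name.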

Additional observations from a re-analysis of the deposited data

Results flagged for a closer look

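Over 84 sets of 4 mice (7 genes in 12 groups), 3 held a mouse far from the others, and chance gives about 1 set in 20. Gabra3 was 116.08 CPM in APOE4 male nPM mouse 65 against 134 to 136 CPM in the other mice of its group. Gabra5 was 26.154 CPM in B6 male nPM mouse 16 against 15.4 to 17.0 CPM, and 38.346 CPM in APOE3 male nPM mouse 53 against 36.8 to 37.0 CPM. The nPM response of Gabra4 differed between alleles in females by 0.62657 (log2, limma unadjusted p = 0.0022, adjusted p = 0.124), a value that rests in part on APOE3 female controls 61 and 6.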

How the results depend on the processing

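Of 3101 values of single subunits under alternatives, 3070 kept their side of the threshold, 190 of them with a change of sign at an unadjusted p of at least 0.05 before and after, 18 lost the call, 10 gained it and 3 reversed. The 3 reversals came with the length covariate, Gabrb2 in control females (0.025) and Gabra4 (0.23) and Gabra5 (0.19) between alleles in nPM females. Of the 7 genes, the number called for nPM in APOE3 females was 1 with variance shared over the table (Gabra4). Between alleles in control females it was 3 with shared variance (Gabra3, Gabra4 and Gabrb2). It was 0 without mice 61 and 6 (chosen after the values were seen), and 0 to 3 with 1 mouse left out. With the length covariate it stayed 1 on another gene, Gabra2 in place of Gabra4. The Gabra4 call there was lost in 7 of 8 cases and kept only without APOE3 control 52, with log2 differences of −0.78 to −0.51. Over 48 mice the allele called 1 with voom and ComBat and 1 in APOE-TR mice alone (Gabra3), where 1275 of all genes were called against 194. For the difference of the nPM response between alleles, the count in females was 0 with the length covariate, 0 without mice 61 and 6, and 0 to 1 with 1 mouse left out, where Gabra4 ran from 0.49 to 0.76 and lost its call in 7 of 32 cases; over both sexes it was 0 to 1. The cause was not tested. Among all genes, calls between alleles in control females numbered 957, with 275 under the length covariate, 6660 under shared variance and 234 to 3129 with 1 mouse left out, and for nPM in APOE3 females 102 and 4963 under shared variance. Calls in the allele difference in females numbered 605, with 170 without mice 61 and 6 and 224 to 3264 with 1 mouse left out. No paired analysis was possible because the compared groups hold different animals. Some animal numbers recur between sexes in the labels, which do not give them as pairs. The edgeR test was not run in fits with B6 mice, whose whole reads could not be recovered.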
